A study of Mus musculus with 3 samples.

Results

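The miR-200 family (miR-200b-3p, miR-200a-3p, miR-429-3p, miR-200c-3p and miR-141-3p) and the epithelial microRNAs miR-203-3p and miR-205-5p were measured in mouse visceral white fat. MicroRNAs (miRNAs) are short RNAs that lower the output of messenger RNAs carrying matching sites. These 7 were picked by name from the 1251 mature miRNAs of the deposited table, and each had a row. It was epididymal fat, taken from C57BL/6J mice numbered 1, 3 and 9 (n = 3). From an age of 5 to 6 weeks they had eaten, for 11 weeks, a high-fat diet with added EPA (eicosapentaenoic acid, a marine omega-3 fat), and they were fasted for 4 h before the tissue was taken. The energy was 45% fat, 20% protein and 35% carbohydrate, and the EPA content was 6.75%, on a basis that is not stated. All samples form 1 group without a control diet, and an effect of EPA cannot be read from them. That these are separate animals rests on the sample titles and a stated count of samples per group. The p-values measure the spread between samples, which may be technical.

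miR-200 family members are known for holding cells in an epithelial state. They repress ZEB1 and ZEB2, transcription factors that shut off E-cadherin, and the ZEB proteins in turn repress the miR-200 genes. miR-205-5p acts on the same ZEB targets and is typical of basal layers of stratified and glandular epithelia, while miR-203-3p limits the stem-cell factor p63 in the outer layers of skin. Fat cells and the stroma around them are mesenchymal. The epididymal fat pad lies against the epididymis and is covered by mesothelium, and the protocol does not say how it was trimmed.

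The mature sequences are shown because the bases at positions 2 to 8, the seed in capitals, select the targets and divide the family. They come from RefSeq, matched by name for 7 of 7, and run 5′ to 3′.
miR-200b-3p: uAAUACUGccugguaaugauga
miR-429-3p: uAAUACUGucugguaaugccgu
miR-200c-3p: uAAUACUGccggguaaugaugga
miR-200a-3p: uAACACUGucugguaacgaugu
miR-141-3p: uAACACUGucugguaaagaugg
miR-203-3p: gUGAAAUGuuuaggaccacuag
miR-205-5p: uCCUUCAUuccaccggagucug
miR-200b-3p, miR-429-3p and miR-200c-3p share 1 seed, and miR-200a-3p and miR-141-3p share the other. Counted from the 5′ end, the seeds differ by 1 base, U4C from miR-200b-3p to miR-200a-3p. Outside the seed, miR-200c-3p differs from miR-200b-3p at 2 of 22 compared positions (U11G and A22G), and miR-141-3p differs from miR-200a-3p at 2 of 22 (C17A and U22G). The seeds of miR-203-3p and miR-205-5p occurred in 0 other mature miRNAs of the RefSeq table.

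The 5 family members come from 2 clusters of hairpins (build GRCm38.p6, the assembly of mm10, which the series used). Mir200b (chr4:156055681-156055750), Mir200a (chr4:156054896-156054985) and Mir429 (chr4:156053905-156053987) lie within 1846 bases on the minus strand, each in an intron of Ttll10, a gene of the tubulin tyrosine ligase-like family, and of the non-coding transcript Gm13648, except that Mir429 falls in an exon of Gm13648. Mir200c (chr6:124718322-124718390) and Mir141 (chr6:124717914-124717985) lie within 477 bases on the minus strand, in an intron of the non-coding antisense gene Gm15884, and Mir141 also overlaps part of an exon of Gm29008. Mir203 (chr12:112130880-112130955, plus strand) overlaps no other annotated gene on its strand. Mir205 (chr1:193507463-193507530, minus strand) lies in an exon of the long non-coding RNA 4631405K08Rik.

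In this fat miR-203-3p and miR-205-5p stood above the 5 miR-200 members, and all 5 miR-200 members were lowest in mouse 9. Levels are log2 values normalized by the authors, on a scale whose floor, 3.32, is the value of a miRNA with no counts. Linear values are given as normalized counts above that floor. miR-203-3p had 9.42, 9.85 and 9.35 log2 units in mice 1, 3 and 9, which is 673, 912 and 640.5 normalized counts. It was the steadiest of the 7, at 9.54 ± 0.27 log2 units (SD, n = 3), and held ranks 104, 94 and 106 of 1251.

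miR-205-5p had 8.70, 11.12 and 8.04 log2 units in mice 1, 3 and 9, or 405, 2214 and 253 normalized counts. Mouse 3 stood far above the other two, and the mean was 9.28 ± 1.62 log2 units (SD, n = 3). In mouse 3 miR-205-5p reached rank 69, against 124 in mouse 1 and 147 in mouse 9.

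The cluster on chromosome 4 gave the larger family values. miR-200b-3p had 8.40, 7.73 and 4.19 log2 units in mice 1, 3 and 9, or 328, 202 and 8.19 normalized counts, with a mean of 6.77 ± 2.26 log2 units (SD, n = 3). miR-429-3p had 6.93, 8.29 and 4.19 log2 units, or 112, 304 and 8.19 normalized counts, with a mean of 6.47 ± 2.09. miR-200a-3p had 6.81 and 6.08 log2 units in mice 1 and 3, or 103 and 57.4 normalized counts, stood at the floor in mouse 9 and averaged 5.40 ± 1.84. In mouse 9, miR-200b-3p and miR-429-3p shared their value with 9 rows in all, so their equality there is that of a low step of the scale.

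The chromosome 6 pair was near the floor throughout. miR-141-3p had 5.24 and 5.74 log2 units in mice 1 and 3, or 27.9 and 43.4 normalized counts, and the floor in mouse 9. miR-200c-3p had 4.66 and 5.60 log2 units in mice 1 and 3, or 15.3 and 38.5 normalized counts, and the floor in mouse 9. Their means were 4.77 ± 1.28 and 4.53 ± 1.14 log2 units (SD, n = 3). Floor values mean not detectable at an unknown depth, not absent. In such tissue samples fewer cells of a type and less RNA per cell cannot be told apart.

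**Figure D1:**
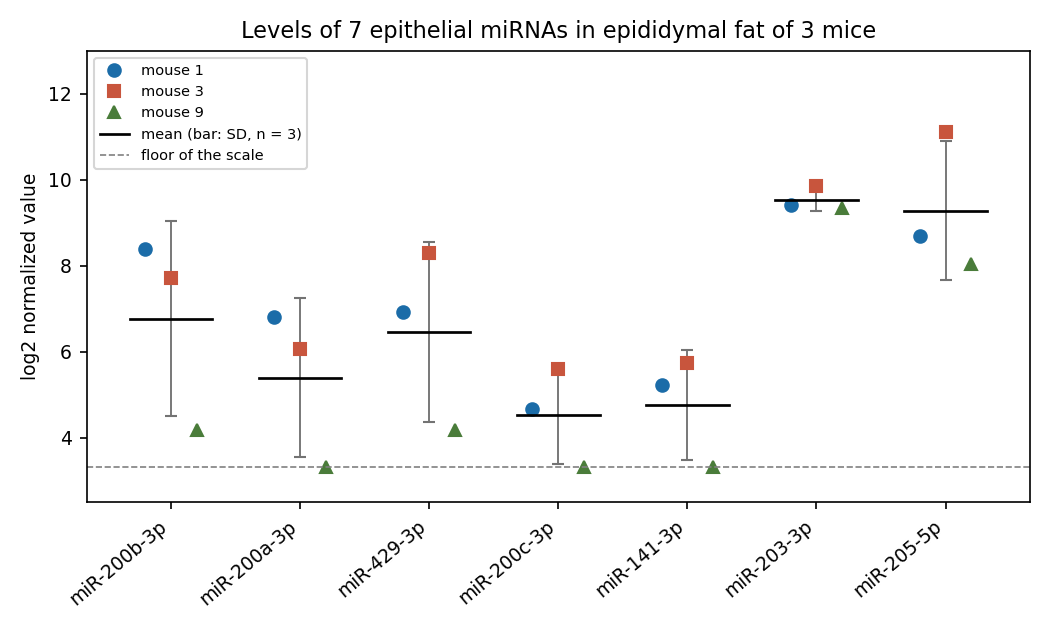
Log2 normalized value (vertical axis) of each of the 7 miRNAs (horizontal axis) in mouse 1 (circle), mouse 3 (square) and mouse 9 (triangle), with the mean as a line, the SD of 3 mice as a bar and the floor of 3.32 dashed. The 5 miR-200 members have their lowest value in mouse 9, at 4.19 or at the floor, while miR-203-3p stays between 9.35 and 9.85 and miR-205-5p peaks in mouse 3 at 11.12.

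Of the 7 miRNAs, 7 were above the floor in mouse 1, 7 in mouse 3 and 4 in mouse 9. In all 3 mice 4 of 7 were above it, against 22.9% of the 1251 listed, and without mouse 9 it was 7 of 7. Of all 1251 listed, 336 stood above the floor in mouse 9, 316 in mouse 1 and 317 in mouse 3. Depth is unknown, and its part in the mouse 9 values was not tested.

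The order of levels held only in part. miR-205-5p stood above miR-200b-3p in all 3 mice, and miR-429-3p above miR-200a-3p in all 3. Only the first of these had a mean difference above its SD between mice (2.51 ± 1.94 log2 units, against 1.06 ± 1.07 for the second). The other 4 of 6 neighbouring pairs did not keep 1 order in all 3 mice, and none of the 4 differed beyond its spread. miR-203-3p exceeded miR-205-5p in mice 1 and 9, with the reverse in mouse 3. miR-200b-3p exceeded miR-429-3p in mouse 1 by 1.48 log2 units, was below it in mouse 3 by 0.57 and equalled it in mouse 9. miR-200a-3p stood above miR-141-3p, and miR-141-3p above miR-200c-3p, in mice 1 and 3, with all 3 at the floor in mouse 9.

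Together the 7 miRNAs were a small part of the miRNA signal. They summed to 1664, 3771 and 909.5 normalized counts in mice 1, 3 and 9, which is 0.0879% ± 0.0617 of a mouse's summed value (SD, n = 3). The 5 miR-200 members summed to 586, 645 and 16.4 normalized counts. They made up 35.2% of the 7-miRNA sum in mouse 1, 17.1% in mouse 3 and 1.80% in mouse 9. The sum of miR-203-3p and miR-205-5p was 1078, 3126 and 893 normalized counts. The mouse 9 family sum is 2 values on a low step of the scale plus 3 at the floor, so no fold is given for it.

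**Figure D2:**
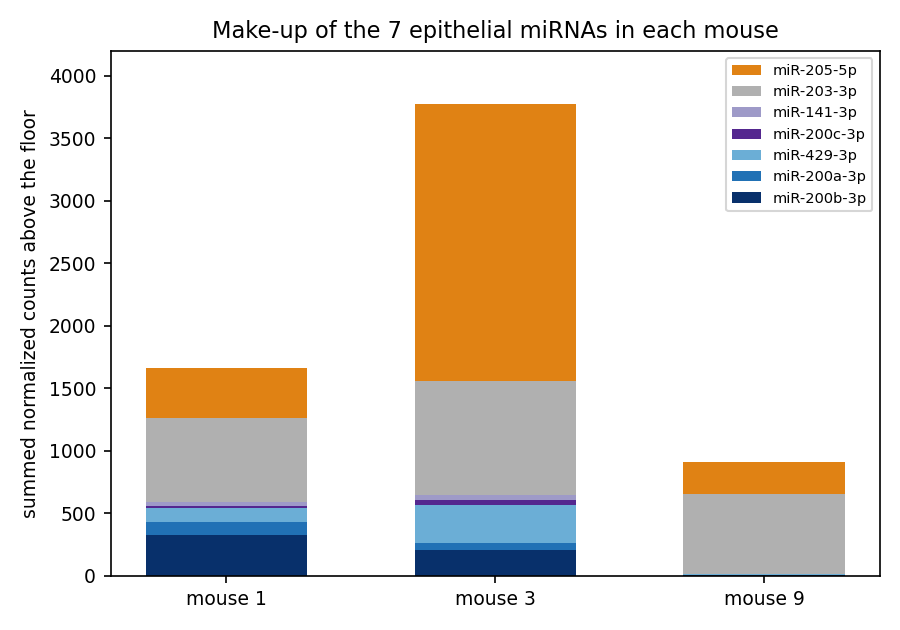
Normalized counts above the floor (vertical axis, linear, from 0) stacked by miRNA for each mouse. miR-205-5p fills most of the mouse 3 bar with 2214, miR-203-3p most of the mouse 9 bar with 640.5, and the 5 miR-200 members (blue and purple) nearly vanish in mouse 9 at a sum of 16.4.

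The chromosome 4 cluster and the seed of miR-200b-3p carried most of the summed family signal. The log2 difference between the summed chromosome 4 cluster and the summed chromosome 6 cluster, taken after adding 10, was 3.38, 2.64 and 1.40 in mice 1, 3 and 9, on average 2.47 ± 1.0 (SD, n = 3). The seed shared by miR-200b-3p, miR-429-3p and miR-200c-3p exceeded the seed of miR-200a-3p and miR-141-3p by 1.73, 2.32 and 1.40, on average 1.82 ± 0.47. The mouse 9 values of both rest on a denominator at the floor, and both set a sum of 3 miRNAs against a sum of 2. With means of log2 values in place of sums, the averages were 1.57 for the clusters and 0.84 for the seeds. The 5 miR-200 members stood below miR-203-3p plus miR-205-5p in 3 of 3 mice, the difference being -0.87, -2.26 and -5.10, on average -2.74 ± 2.16, or -3.82 with means of log2 values. An exact sign-flip test, two-sided, gave p = 0.25 for each of these 3 contrasts, and 0.25 after Benjamini-Hochberg adjustment, the smallest p that 3 mice allow.

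Members of 1 cluster did not keep a fixed ratio in the 3 mice. The ratio of miR-429-3p to miR-200b-3p normalized counts was 0.340 in mouse 1, 1.51 in mouse 3 and 1.0 in mouse 9. The ratio of miR-200a-3p to miR-200b-3p was nearly the same in the first and second mouse, at 0.312 in mouse 1 and 0.285 in mouse 3. On chromosome 6, miR-141-3p to miR-200c-3p was 1.82 in mouse 1 and 1.13 in mouse 3. Unequal capture of different sequences cannot be told apart from unequal amounts when levels of different miRNAs are compared.

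Each hairpin gives a 5p and a 3p strand, and 1 strand was seen almost alone for all 7 hairpins. The hairpins of miR-200b, miR-203 and miR-205 are shown, with both annotated strands in capitals, the 5p strand first.
Mir200b: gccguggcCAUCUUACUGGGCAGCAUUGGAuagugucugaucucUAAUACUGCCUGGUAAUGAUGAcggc
Mir203: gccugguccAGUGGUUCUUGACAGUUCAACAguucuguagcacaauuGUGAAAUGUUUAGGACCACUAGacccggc
Mir205: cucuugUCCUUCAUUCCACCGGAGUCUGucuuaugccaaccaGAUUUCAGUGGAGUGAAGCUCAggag
In the family and in miR-203 the right-hand, 3p, strand was the one measured, and in miR-205 the left-hand, 5p, strand. Of the 7 opposite strands, 6 stood at the floor in every mouse, as did 888 of the 1251 listed miRNAs. For miR-200c and miR-141 the seen strand itself had at most 43.4 normalized counts. The exception was miR-200b-5p, at 3.83 log2 units in mouse 1 and at the floor in mice 3 and 9.

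The arm ratio was tested over 129 hairpins whose larger strand averaged at least 100 normalized counts, and 4 of the 7 hairpins were among them. In a two-sided moderated test of the ratio against 0 (limma, Benjamini-Hochberg adjusted over the 129), the 3p strand was higher for miR-203 (log2 ratio of 5p to 3p -6.21, SE 0.17, adjusted p = 6.79e-06), for miR-200b (-3.28, SE 0.85, adjusted p = 0.0174) and for miR-429 (-3.15, SE 0.85, adjusted p = 0.0196), each in 3 of 3 mice. The 5p strand was higher for miR-205 (5.96, SE 0.66, adjusted p = 0.000784), in 3 of 3 mice. Of all 129 hairpins, 45.7% had the 3p strand and 51.2% the 5p strand higher at an adjusted p below 0.05, so a call was the rule. With the opposite strand at the floor, these ratios are in essence the height of the seen strand above the floor. The calls of miR-200b and miR-429 were lost without mouse 1 (limma adjusted p = 0.121 and 0.131) and with no filter (0.206 and 0.222), and that of miR-200b without mouse 3 (0.184). Without mouse 3, miR-429 fell under the filter and was not tested. miR-200a, miR-200c and miR-141 were under the filter, and their 3p strand was the higher in mice 1 and 3, with both strands at the floor in mouse 9.

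All but miR-203-3p, that is 6 of the 7 miRNAs, varied between mice by an SD above 1 log2 unit. Of the 194 miRNAs that averaged 100 normalized counts or more, 5.67% had such an SD, 3 of the 4 epithelial ones included, and the median SD was 0.22. Of the 363 seen in at least 1 mouse, 7.71% had it. miR-200b-3p and miR-429-3p, with 8.19 normalized counts in mouse 9, reached the mean of 100 only through mice 1 and 3. Of the 4 of the 7 that belong to these 194, miR-200b-3p had the 5th largest SD, miR-429-3p the 6th and miR-205-5p the 7th, while miR-203-3p with 0.27 held place 79. The 14 neighbours next above or below the 7 in mean level had SDs between 0.13 and 1.34, with a median of 0.41. For miR-205-5p those neighbours were miR-34a-5p (9.34 ± 0.28) and miR-28c (9.23 ± 0.13).

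None of the 4 passed the test of that spread. An F test set each variance against a prior variance for miRNAs of like level, taken from limma's robust trended fit. The adjusted p over the 194 was 0.0824 for miR-205-5p, 0.583 for miR-200b-3p, 0.783 for miR-429-3p and 0.974 for miR-203-3p. The prior SD was 0.65 for miR-200b-3p and 0.91 for miR-429-3p, against 0.26 for miR-205-5p. A filter on the linear mean favours variable miRNAs at low log2 means, so the test cannot decide on the spread of miR-200b-3p and miR-429-3p. With no filter their unadjusted F-test p was 0.00092 and 0.0025, and the adjusted p 0.0557 and 0.113. Unadjusted and with the filter, the F-test p was below 0.05 for miR-205-5p (0.00127) and miR-200b-3p (0.015), and for 6.19% of the 194. Because the filter favours variable miRNAs such as miR-200b-3p, no excess of the epithelial miRNAs is read from this. Past the adjusted threshold were 1.03% of the 194, namely the muscle miRNAs miR-133a-3p and miR-133b-3p, against 0 of the 194 with a prior that was not robust and 0 when any 1 mouse was left out. The remaining 3, with a mean below 100, were not in this test.

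**Figure D3:**
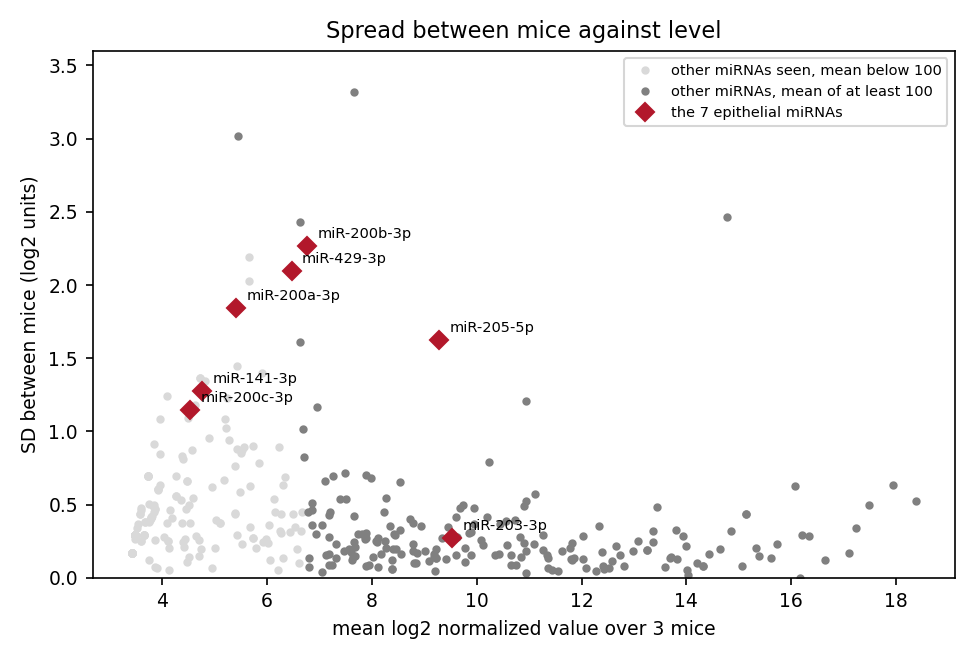
SD between the 3 mice (vertical axis, log2 units) against the mean log2 normalized value (horizontal axis) for every miRNA above the floor in at least 1 mouse, with the 7 epithelial miRNAs as red diamonds. miR-200b-3p, miR-429-3p and miR-205-5p lie high above most miRNAs of their level, at SDs of 2.26, 2.09 and 1.62, and miR-203-3p lies among them at 0.27.

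Between single mice the larger differences that involved mouse 9 ran one way. Mouse 9 was below mouse 1 by at least 1 log2 unit for 5 of 7, the 5 miR-200 members. Of all 194 miRNAs 4.12% were that much lower in mouse 9, and of the 363 seen in at least 1 mouse 5.23%. The largest difference was that of miR-200b-3p, -4.22 log2 units, with 4.19 in mouse 9 and 8.40 in mouse 1. Those of miR-203-3p (-0.07) and miR-205-5p (-0.66) were small. miR-200a-3p, miR-200c-3p and miR-141-3p stood at the floor in mouse 9, which bounds their differences. Mouse 9 was below mouse 3 by at least 1 log2 unit for 6 of 7, the exception being miR-203-3p with a difference of -0.50. Of the 194, 6.19% were that much lower in mouse 9 than in mouse 3, and of the 363, 6.89%. Both comparisons use mouse 9, and with 1 sample on each side no test was made.

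Mouse 3 and mouse 1 were closer. miR-205-5p was higher in mouse 3 by 2.42 log2 units and miR-429-3p by 1.37, and the other 5 differed by less than 1. Of the 194 miRNAs 3.61% were higher in mouse 3 by at least 1 log2 unit, and of the 363, 4.96%. miR-200b-3p and miR-200a-3p went the other way, with differences of -0.68 and -0.74. The median difference over the 194 was -0.04 log2 units for mouse 3 minus mouse 1, 0 for mouse 9 minus mouse 1 and 0.06 for mouse 9 minus mouse 3.

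**Figure D4:**
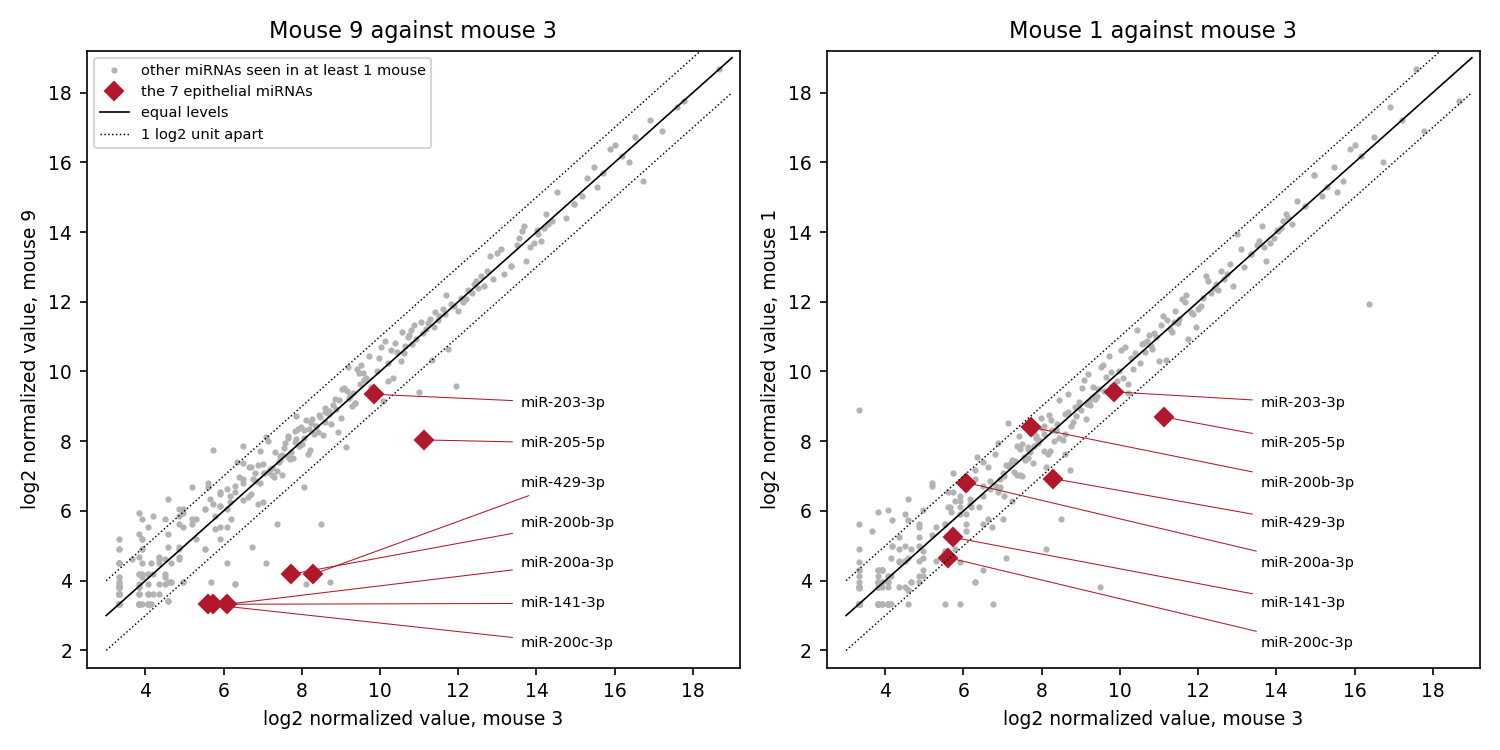
Log2 normalized value in mouse 9 (left, vertical axis) and in mouse 1 (right, vertical axis) against mouse 3 (horizontal axis) for each miRNA seen in at least 1 mouse, with dotted lines 1 log2 unit from equality and the 7 epithelial miRNAs as red diamonds. In the left panel 6 of the 7 lie more than 1 log2 unit below equality, and in the right panel miR-205-5p and miR-429-3p do.

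Markers of other cells were read in the same libraries. The fat-cell list stood where the tissue label puts it, with 8 of 8 above the floor in every mouse, between miR-196a-5p at 6.62 ± 2.43 and miR-143-3p, which promotes fat-cell formation, at 17.10 ± 0.17 log2 units (SD, n = 3). All 6 of the stromal list were above the floor too, and they summed to 183963, 181771 and 151786 normalized counts in mice 1, 3 and 9, the lowest being miR-199b-5p at 8.22 ± 0.45. The fat-cell sum was 235090, 278417 and 191546. Both sums were mostly miR-143-3p, which is in both lists and had 150521, 150521 and 122602 normalized counts. The next largest part of the fat-cell sum was miR-378a-3p, with 66274, 107616 and 45289 in mice 1, 3 and 9. The sums say little of the smaller members. The fat-cell list did not move as 1 group. miR-196a-5p was much lower in mouse 9, with 7.17, 8.73 and 3.96 log2 units in mice 1, 3 and 9. miR-143-3p, miR-378a-3p, miR-107-3p and miR-193b-3p were also lowest in mouse 9, by smaller steps. miR-335-5p (5.78, 7.0 and 7.35), miR-103-3p and miR-365-3p were highest in mouse 9.

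A list of 10 further miRNAs found in many epithelia did not move as 1 group. Above the floor in all 3 mice were 6 of 10, at the floor in all 3 were miR-96-5p and miR-135b-5p, and the sums were 4753, 6141 and 2279 normalized counts in mice 1, 3 and 9. miR-182-5p, of a sensory and epithelial cluster, led with 11.29, 11.94 and 9.59 log2 units in mice 1, 3 and 9, lowest in mouse 9. Its cluster partner miR-183-5p was level at 7.73, 8.21 and 7.75, as were the gut and kidney miRNAs miR-192-5p (10.08, 10.34 and 9.83) and miR-194-5p (7.0, 7.5 and 7.02). miR-31-5p, typical of keratinocytes, was high in mouse 3 like miR-205-5p, with 5.78, 8.50 and 5.64. Together miR-203-3p, miR-205-5p and miR-31-5p, which make up the keratinocyte list, were all above the floor and summed to 1123, 3477 and 933 normalized counts.

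The rest of that list followed other patterns. miR-375-3p, of islet and other secretory epithelia, was high in mouse 1 alone, with 8.90 log2 units against the floor in mouse 3 and 4.12 in mouse 9. miR-224-5p was lowest in mouse 3, with 8.53, 7.14 and 8.0 in mice 1, 3 and 9. miR-215-5p, which shares its seed with miR-192-5p, was above the floor in mouse 3 only, at 4.08.

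The sum of the multiciliated-cell list was nearly level in the 3 mice, and the 12 miRNAs listed for testis and germ cells stood at the floor. In the list of 7 for multiciliated cells of the epididymal tract and other epithelia, sums were 225, 203 and 193 normalized counts in mice 1, 3 and 9. That signal was nearly all miR-34c-5p, at 7.83, 7.64 and 7.54 log2 units, with miR-34b-3p at 4.13, 4.08 and 4.19 and miR-34c-3p at the floor, 4.08 and 4.19. miR-34b-5p, miR-449a-5p, miR-449b and miR-449c-5p were at the floor in all 3 mice. All 12 testis and germ-cell miRNAs, among them miR-465a-5p, were at the floor in every mouse. So were 888 of the 1251 listed, so a row at the floor is the rule here. No list of miRNAs particular to epididymal principal cells or to mesothelium was used, so the part of such cells in the miR-200 values was not tested.

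**Figure D5:**
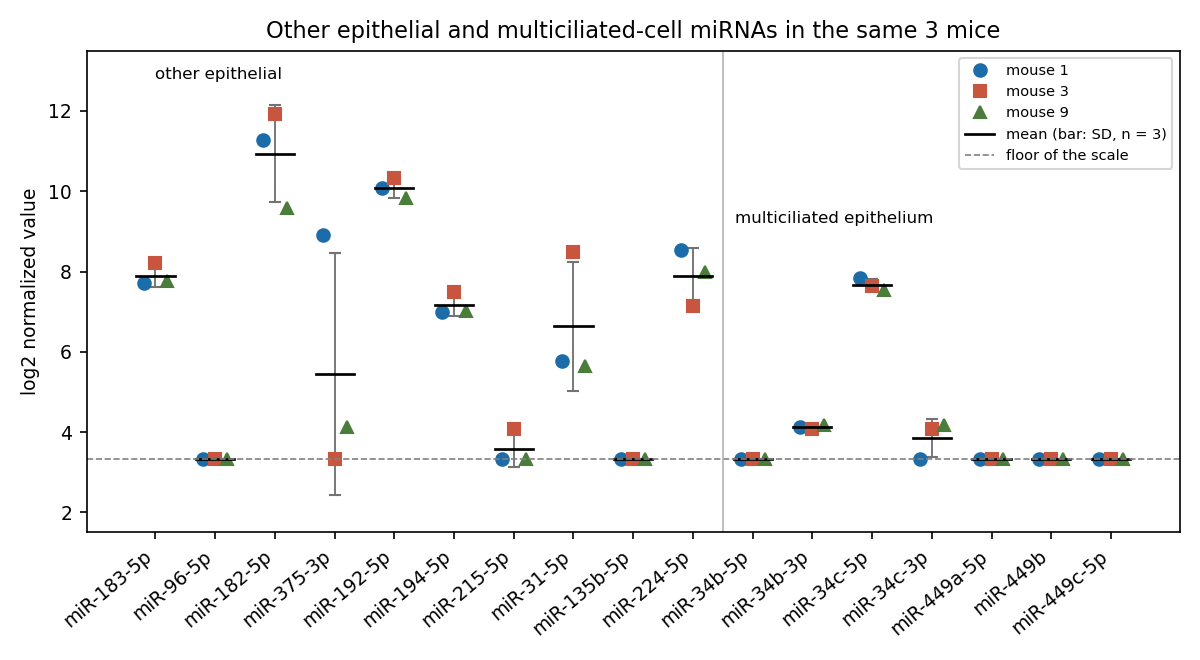
Log2 normalized value (vertical axis) of 10 other epithelial miRNAs and 7 miRNAs of multiciliated epithelium (horizontal axis, split by a grey line) in mouse 1 (circle), mouse 3 (square) and mouse 9 (triangle), with the mean as a line and the SD of 3 mice as a bar. miR-182-5p is lowest in mouse 9, miR-31-5p highest in mouse 3 and miR-375-3p highest in mouse 1, whereas miR-34c-5p stays between 7.54 and 7.83.

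Lists of non-epithelial cells showed other patterns. In the striated muscle list 2 of 7 exceeded the floor in every mouse. It summed to 3912, 85898 and 67096 normalized counts in mice 1, 3 and 9, lowest in mouse 1. That sum was nearly all miR-133a-3p (14.78 ± 2.47 log2 units), with 3908, 85150 and 66274 normalized counts, so it says little of the other members. miR-133b-3p was also lowest in mouse 1, with 3.83, 9.49 and 9.65 log2 units. miR-1a-3p stood at the floor, 5.53 and 3.44, miR-206-3p left the floor only in mouse 3 (3.83) and miR-208b-3p only in mouse 9 (5.20). miR-208a-3p and miR-499-5p were at the floor throughout. The endothelial pair miR-126-3p (13.37 ± 0.32) and miR-126-5p (12.67 ± 0.22) summed to 14862, 21262 and 15707. In the leukocyte list 3 of 5 exceeded the floor in every mouse, and it summed to 8832, 8511 and 9154, led by miR-150-5p (12.81 ± 0.08), with miR-155-5p at the floor. The part of these cells in the values of the 7 miRNAs was not tested.

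The miRNA nearest to the average profile of 4 of the epithelial ones was miR-182-5p, although it was nearest to none of the 4 taken singly. Likeness was the root mean square distance between log2 profiles centred on their own means, measured to the average profile of miR-200b-3p, miR-429-3p, miR-203-3p and miR-205-5p, which was 0.35, 1.23 and -1.58 in mice 1, 3 and 9. Among 190 other miRNAs that averaged 100 normalized counts or more, miR-182-5p lay nearest to this average, at 0.19 log2 units. Measured to single miRNAs, it was the second for miR-429-3p (0.73) and miR-205-5p (0.73) and the third for miR-200b-3p (1.03), and it was not among the nearest 3 of miR-203-3p. After it, by distance to the average, came miR-378a-5p (0.54), miR-872-5p (0.59), miR-455-3p (0.59), miR-5115 (0.64), miR-378a-3p (0.70), miR-193b-3p (0.75), miR-107-3p (0.78), miR-378c (0.79) and miR-196a-5p (0.81). miR-200b-3p and miR-429-3p, with 8.19 normalized counts in mouse 9, passed the filter only through mice 1 and 3. The same holds for miR-196a-5p, with 5.56 in mouse 9. Part of the shared low value in mouse 9 therefore comes with the filter. With 3 mice this likeness is a description of these libraries only.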

How the data were processed

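Total RNA of frozen fat went into Illumina small RNA libraries, per the labels' protocols. The deposited values are log2 values, 1 per mature miRNA and mouse. As the series' design text has it, the authors processed about 13.8 M mapped reads per sample with the Gunaratne pipeline on mm10 (also named per the submitters' processing notes), scaled counts by usable reads and added 40. Which aligner and miRNA annotation they used is not given in the sources used here. In the deposited log2 values the lowest is 3.32, or 10 when unlogged, and 260 values fall under 40, so the constant held is not 40. Of the top 100 ranks 85 hold 1 value in the 3 mice within 1e-06, a pattern that quantile normalization leaves but that no source states. Totals are then equal by construction, differences between mice are in essence those of rank, and depth is unknown, so counting intervals cannot be had.

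From each unlogged value 10 was subtracted to give a linear value, and 10 was added before any log. Differences near the floor are understated. Arm ratios were tested with limma 3.58.1 in R 4.3.3 over all hairpins whose larger strand had a mean of at least 100. Variances between mice, over all miRNAs past that mean, were tested by an F test against limma's prior variance, with its largest prior degrees of freedom. The threshold was 0.05 for both. Sums were tested by exact sign flips. On simulated data the arm test called 60 of 60 moved hairpins among 129, and the variance test 10 of 10 variable miRNAs among 194 with the robust prior and 0 of 10 with the plain one, with 0 false calls each. In these simulations all unchanged miRNAs had equal noise, unlike the data. Other steps used Python 3.11.15 with pandas 2.3.3 and numpy 2.4.6, figures matplotlib 3.10.9, and the simulation the random seed 11. Sequences are RefSeq's on GRCm38.p6, and gene overlaps are from GENCODE M21.

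The miRNAs, lists and the robust prior were chosen with earlier results of these data known. Named were the 7, their opposite strands, the epithelial, multiciliated and keratinocyte lists (miR-203-3p, miR-205-5p and miR-31-5p), the highest and lowest of the other lists, level neighbours and the 10 most alike in profile. miR-145-5p was matched to miR-145a-5p. Some further list members were named after their values were seen. Alternatives were pseudocounts of 1 and 40, means of log2 values in place of sums, shares with no constant subtracted, median-ratio scaling, other filters, detection limits and priors, and leaving out each mouse.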

Additional observations from a re-analysis of the deposited data

How the results depend on the processing

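Of 177 alternative values, 157 kept their direction and side of the threshold or stayed within the spread between mice, and 0 reversed. The 48 levels and 8 shares among them have no direction to reverse. The contrasts, with 7 alternatives each, could not pass a threshold with so few mice, so this count is no measure of robustness. The count of the 7 miRNAs seen in all mice, 4, became 2 with at least 10 or at least 100 normalized counts required, and ran from 4 to 7 when 1 mouse was left out, with 7 without mouse 9. The 125 arm calls of 129 hairpins became 67 of 67 with a mean of at least 1000, fewer hairpins being tested. The 2 variance calls became 0 with the plain prior and 0 with the robust prior without trend, and were 0 without each mouse in turn. With no filter on the mean, miR-200b-3p and miR-205-5p each had an F-test adjusted p = 0.0557 over 363 miRNAs. The 5 of 7 at least 1 log2 unit apart between mouse 9 and mouse 1 became 3 with a pseudocount of 40 and 3 at a limit of 2 log2 units, where the 2 of 7 between mouse 3 and mouse 1 became 1. The means of miR-200c-3p (3.11 with a pseudocount of 1, 5.80 with 40) and miR-141-3p (3.44 with 1) moved beyond their SD, as values near the floor do by construction. The cause of the other changes was not tested. No comparison of groups paired by mouse was possible because there is 1 group. The arm ratios and the contrasts were differences within a mouse.

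Unknown depth limits every statement on values at the floor, and the no-filter arm fit is weakly grounded because most of its hairpins have no variance.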

Other observations

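Taken 1 by 1, after their values were seen, the 4 better-measured epithelial miRNAs had different nearest neighbours in profile among the same 190 miRNAs. miR-205-5p lay nearest to miR-31-5p, another keratinocyte miRNA, at a distance of 0.21 log2 units, both being highest in mouse 3. miR-203-3p lay nearest to miR-872-3p (0.037), then to the epithelial miR-194-5p (0.038) and miR-183-5p (0.040), all nearly level. miR-429-3p lay nearest to miR-196a-5p, a miRNA of the Hox clusters, at 0.28, with 7.17, 8.73 and 3.96 log2 units in mice 1, 3 and 9. Here too the filter played a part, as miR-196a-5p had 134, 413 and 5.56 normalized counts and passed through mice 1 and 3. miR-200b-3p had no close neighbour, the nearest being miR-455-3p at 0.90.

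Among the 7 themselves the closest profiles were those of miR-200c-3p and miR-141-3p (0.25 log2 units), next those of miR-200b-3p and miR-200a-3p (0.36), each a pair from 1 cluster. miR-429-3p was farther from its cluster mates miR-200b-3p (0.86) and miR-200a-3p (0.87), and about as far from miR-205-5p (0.85). miR-200a-3p, miR-200c-3p and miR-141-3p stood at the floor in mouse 9, which bounds their profiles, and these distances are a description only.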
